A study of Bos taurus with 12 samples.

Results

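FBP1 (ENSBTAG00000009733) and ADAMDEC1 (ENSBTAG00000001125) are 2 of the 27607 Ensembl genes counted in the peripheral white blood cells (PWBCs) of 12 beef heifers. The pair was selected on the readout itself, as genes with some of the largest log2 fold changes (log2FC) between subfertile and fertile heifers and few reads in any library. The difference between fertility groups is therefore given for both genes as a description, without a test. Both passed the filter on low counts, which kept 13012 genes, so both are described in full.

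The heifers were Simmental-Angus crosses entering their first breeding season. All of them received the same synchronization with GnRH, an intravaginal progesterone device and prostaglandin before artificial insemination (AI) with semen of 1 Angus sire. The 6 fertile heifers, labelled Pregnant, conceived to that AI, and the 6 subfertile heifers, labelled Open, were not pregnant after AI and the natural service that followed it. Blood was drawn 2 days before AI, when the outcome was not yet known, and the reproductive tract score, a grade of pubertal development, was 5 in 1 heifer of each group (LM1247 and LM1246) and 4 in the other 10. Each heifer gave 1 poly(A)-selected library, so the replicates are animals and not repeat libraries.

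FBP1 encodes fructose-1,6-bisphosphatase, the enzyme that removes a phosphate from fructose 1,6-bisphosphate and so runs against phosphofructokinase, the committing step of glycolysis. It is known best from gluconeogenesis in liver and kidney, and among blood-derived cells it is expressed in monocytes and macrophages. ADAMDEC1 encodes decysin 1, a secreted metalloprotease related to the ADAM family that lacks most of the domains of a typical ADAM protein, and it is known as a product of macrophages, dendritic cells and the gut. PWBCs are a mixture of lymphocytes, monocytes and granulocytes, and in such bulk samples more cells of a type and more RNA per cell cannot be told apart.

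The counts on genes summed to between 14010736 and 21278761 per library, and between 15625 and 16323 genes had at least 1 count. The T cell marker CD3E was at 322 to 740 CPM (read counts scaled to a common library size, after TMM) and the B cell marker CD79A at 335 to 719 CPM, as in white blood cells. Lymphocyte RNA was thus abundant in every library. Some libraries stood apart: the fertile library LM1330 had 7705 CPM of the platelet tubulin TUBB1 against a median of 1323 CPM over the 12 libraries. The subfertile library LM1265 had the highest value of both FBP1 and ADAMDEC1, and the means, log2FC and correlation of the pair are given with and without it. LM1265 was the highest library for 951 of the tested genes (7.31%), within the range of 462 genes for LM1313 to 1958 for LM1246.

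FBP1 was counted in all 12 libraries, mostly at a handful of reads. In fertile heifers the counts were 13 in LM1244, 12 in LM1247, 9 in LM1330, 2 in LM1262, 2 in LM1286 and 1 in LM1298. In subfertile heifers they were 115 in LM1265, 40 in LM1313, 14 in LM1246, 12 in LM1259, 11 in LM1283 and 4 in LM1251. In CPM, LM1265 and LM1313 were above every fertile heifer, the other 4 subfertile heifers were within the fertile range, and the groups overlapped. Of the 235 FBP1 reads of the series, 48.9% came from LM1265 and 83.4% from the subfertile group.

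On the CPM scale, the fertile mean of FBP1 was 0.400 ± 0.360 (SD, n = 6) and the subfertile mean 2.09 ± 3.05 (SD, n = 6). The medians were closer together, at 0.332 and 0.654 CPM, and 5 of 6 subfertile heifers were above the fertile median. The ratio of the means was 5.23 and that of the medians 1.97. The edgeR log2FC was 2.40 (SE 0.87). Without LM1265 the subfertile mean was 0.877 ± 0.730 CPM (SD, n = 5), the ratio of the means was 2.19 and the log2FC was 1.17.

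Counting error set how far the single FBP1 values could be ordered. The exact 95% Poisson interval of LM1265 was 6.75 to 9.82 CPM, and that of LM1313, the next library, was 1.54 to 2.93 CPM. These intervals did not overlap, and LM1265 was at 3.80 times the level of LM1313. The LM1313 interval met that of the highest fertile library, LM1247, which reached 1.57 CPM. From LM1247 at 0.902 CPM down to LM1330 at 0.544 CPM, 6 libraries of both groups had intervals that all overlapped. The intervals cover counting error only, and say nothing of the spread between animals. Only 7 libraries, 2 fertile and 5 subfertile, had 10 FBP1 reads or more.

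**Figure D1:**
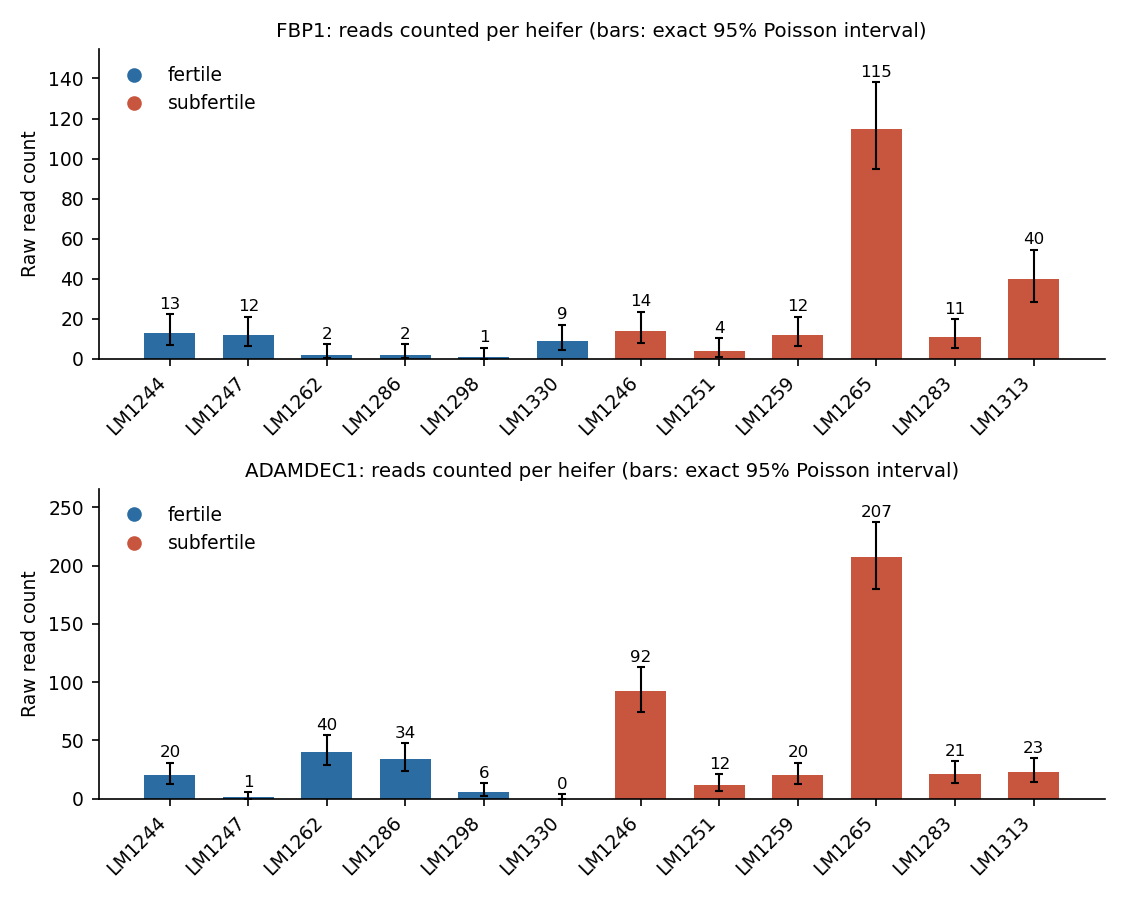
Raw read counts (y axis) of FBP1 (top) and ADAMDEC1 (bottom) in each heifer (x axis), fertile in blue and subfertile in red, with exact 95% Poisson intervals as error bars. LM1265 had 115 FBP1 and 207 ADAMDEC1 reads, above every other library, and the remaining subfertile heifers mostly lay within the fertile range.

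ADAMDEC1 was spread differently over the animals. In fertile heifers the counts were 40 in LM1262, 34 in LM1286, 20 in LM1244, 6 in LM1298, 1 in LM1247 and 0 in LM1330. The 0 in LM1330 allows a level of up to 0.181 CPM, taking 3 counts as the limit. In subfertile heifers they were 207 in LM1265, 92 in LM1246, 23 in LM1313, 21 in LM1283, 20 in LM1259 and 12 in LM1251. LM1265 and LM1246 were above every fertile heifer, and the other 4 subfertile heifers were below the 2 highest fertile ones, LM1262 and LM1286. The groups overlapped, yet no subfertile heifer was as low as the 3 lowest fertile heifers.

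The fertile mean of ADAMDEC1 was 0.921 ± 0.981 CPM (SD, n = 6) and the subfertile mean 3.90 ± 5.45 CPM (SD, n = 6), with medians of 0.673 and 1.23 CPM. The fertile median was exceeded by all 6 subfertile heifers. The ratio of the means was 4.24, that of the medians 1.82, and the edgeR log2FC was 2.05 (SE 0.92). LM1265 held 43.5% of the 476 ADAMDEC1 reads and the subfertile group 78.8%. Without LM1265 the subfertile mean was 1.74 ± 1.43 CPM (SD, n = 5), the ratio of the means was 1.89 and the log2FC was 0.91.

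For ADAMDEC1 the counts separated LM1265 and LM1246 from each other and from the rest. The interval of LM1265 was 12.8 to 16.9 CPM, that of LM1246 was 3.46 to 5.26 CPM and that of LM1262, the highest fertile library, was 1.73 to 3.30 CPM. None of these 3 overlapped, and LM1265 was at 3.43 times the level of LM1246. The LM1262 interval met that of LM1286, which reached 2.35 CPM, and those of LM1313 and LM1283. The libraries LM1286, LM1313, LM1283, LM1259, LM1244 and LM1251 lay between 1.68 and 0.857 CPM with overlapping intervals. ADAMDEC1 had 10 reads or more in 9 libraries, 3 fertile and 6 subfertile.

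The direction of both differences was the same with every library left out in turn. For FBP1 the log2FC was between 1.17, without LM1265, and 2.78, without the fertile library LM1247. For ADAMDEC1 it was between 0.91, without LM1265, and 2.59, without the fertile library LM1262. LM1265 was the single animal whose removal brought the value of either gene below all the others. Since both genes were selected for a higher level in subfertile heifers, the shared sign is no evidence of its own.

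**Figure D2:**
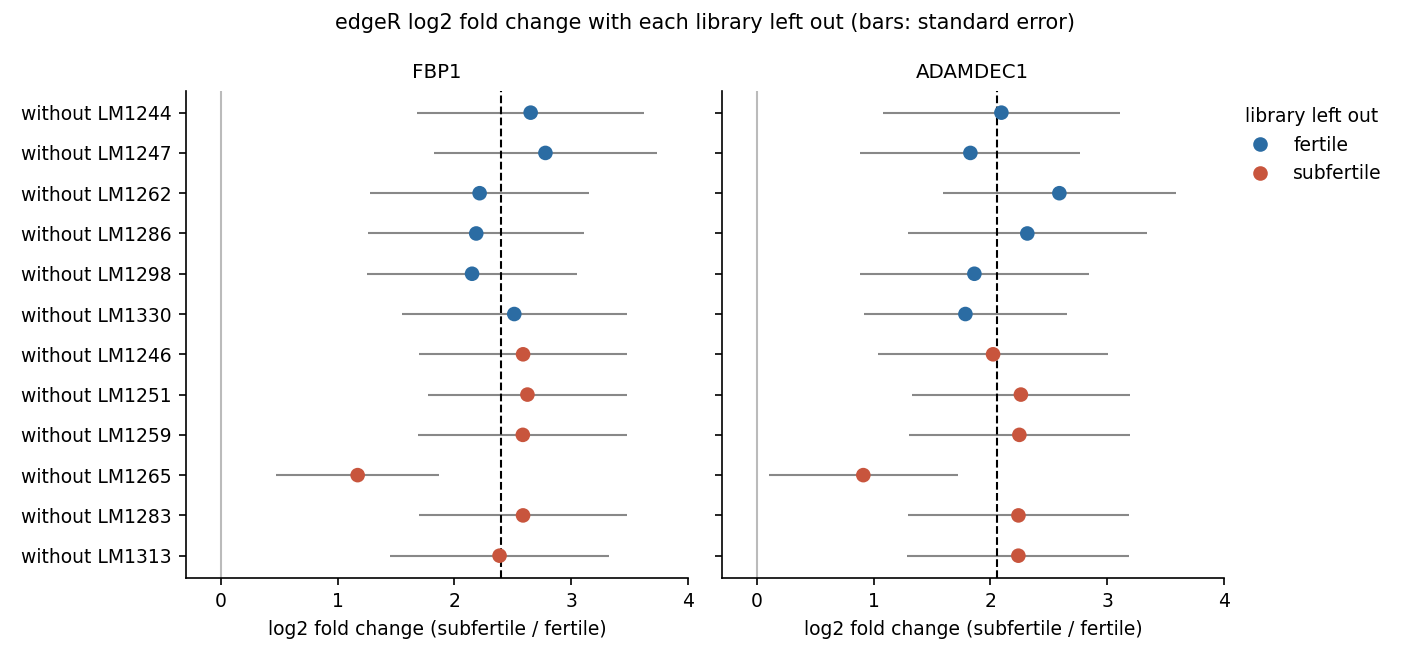
The edgeR log2FC of subfertile against fertile heifers (x axis) for FBP1 and ADAMDEC1 with each library left out in turn (y axis), coloured by the group of that library, with the SE as bars and the value from all 12 libraries as a dashed line. All 12 values of each gene were positive, and those without LM1265, at 1.17 and 0.91, were the lowest.

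Among all 13012 genes tested, edgeR called 182 (1.4%) at the thresholds of the study, an unadjusted P of at most 0.05 together with an absolute log2FC of at least 0.5. As shares of all genes tested, 86 (0.661%) were higher and 96 (0.738%) lower in subfertile heifers, and 341 genes (2.62%) passed the P threshold alone. No gene passed an adjusted P of 0.05 with edgeR (0%; smallest adjusted P 0.9998) or with DESeq2, which called 230 genes (1.77%) at the same thresholds. Groups that did not overlap in CPM were found for 16 genes (0.123%), and FBP1 and ADAMDEC1 were not among them. The spread of both genes within the groups was wide, with a residual SD of 1.37 log2 CPM for FBP1 and 1.68 for ADAMDEC1. Over all genes tested the median SD was 0.304, and 1.49% of genes had a larger one than FBP1 and 0.584% a larger one than ADAMDEC1. Both genes were low, with 7.15% of genes below FBP1 and 13.9% below ADAMDEC1 in mean CPM. Counting error at such levels and the value of LM1265, through which the pair was largely selected, both enter these SDs. Their parts were not tested.

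FBP1 and ADAMDEC1 did not mark the same animals apart from LM1265. LM1313, second for FBP1 with 40 reads, had 23 ADAMDEC1 reads, close to LM1283 with 21. LM1246, second for ADAMDEC1 with 92 reads, had 14 FBP1 reads, close to the fertile LM1244 with 13. In the fertile group the genes ran in opposite ways in 4 heifers: LM1262 and LM1286 had 40 and 34 ADAMDEC1 reads with 2 FBP1 reads each, and LM1247 and LM1330 had 12 and 9 FBP1 reads with 1 and 0 of ADAMDEC1.

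Across all 12 libraries, Pearson's r between the log2 CPM of FBP1 and ADAMDEC1 was 0.41 and Spearman's rho 0.203. These pooled values share the contrast for which the genes were selected, and LM1265 carries much of them, so they are given as a description without a test. Without LM1265 the pooled r was -0.0578 and rho -0.0364. Within fertile heifers r was -0.51 (two-sided exact permutation P = 0.258, adjusted 0.388) and rho -0.371 (exact permutation P = 0.497), with adjustment over the 6 values computed. The fertile values also entered the selection, and LM1262, LM1286 and LM1298 had at most 2 FBP1 reads, so no conclusion is drawn from the fertile P values. Within subfertile heifers r was 0.77 and rho 0.714. These are also given without a test, since the genes were selected for a high subfertile mean that LM1265 largely carries. Without LM1265 the subfertile r was 0.104 and rho 0.5 (n = 5). Without LM1265 and LM1298, the libraries farthest from the FBP1 median, r over the other 10 was -0.233. It is given without a test, since these libraries were left out for their FBP1 values. Whether the relation differs between the groups was not tested.

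**Figure D3:**
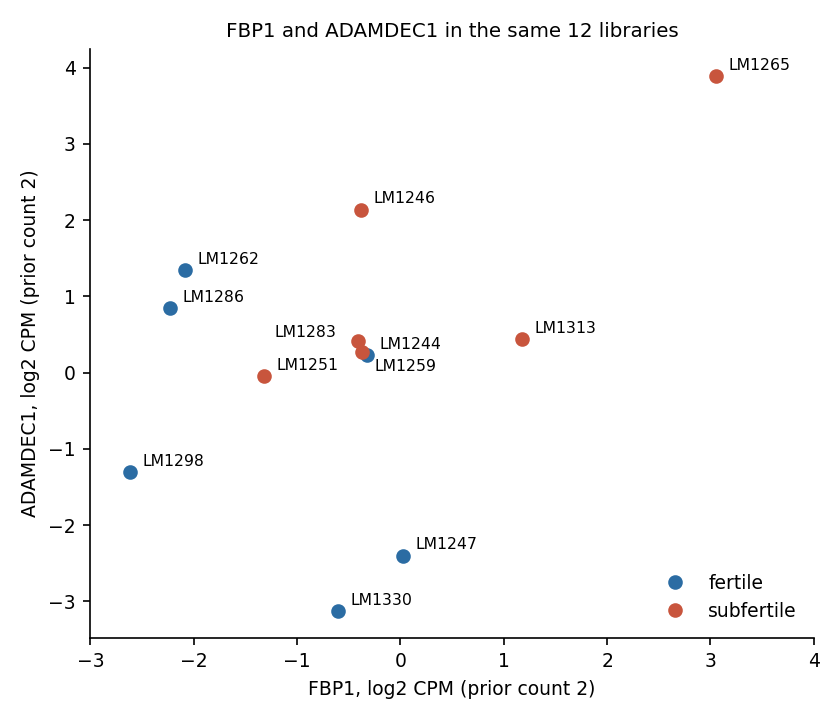
Log2 CPM (prior count 2) of ADAMDEC1 (y axis) against FBP1 (x axis), 1 point per heifer, fertile in blue and subfertile in red. LM1265 is at the upper right for both genes, while LM1262 and LM1286 have 40 and 34 ADAMDEC1 reads with 2 FBP1 reads each, and LM1247 and LM1330 have 12 and 9 FBP1 reads with 1 and 0 of ADAMDEC1.

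Other genes were set beside the pair from lists of cell type markers and pathways. Gene names came from the study's supplementary tables, which name 22.4% of the genes tested and give a name to fewer than 80% of each of the 17 lists, so no list was summed or given a median. The 57 named list genes were instead read one by one. Of these, edgeR called 6 (10.5%) at the thresholds above, 2 higher and 4 lower in subfertile heifers, each with an edgeR adjusted P of 0.9998. Those tables list the genes that the study called, among others, so the named genes are no even sample of all genes. This share therefore cannot be read against the 1.4% of all genes.

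Of the 38 macrophage list genes, 2 are described here. CD68, a lysosomal glycoprotein of macrophages and monocytes, was at 8.76 to 23.5 CPM and highest in LM1265, with a log2FC of 0.08 (SE 0.23). MSR1, the macrophage scavenger receptor, was at 0.0604 to 2.57 CPM, and LM1265 was in place 10 of the 12 libraries with 0.640 CPM. The library with the most FBP1 and ADAMDEC1 was thus high for CD68 and low for MSR1. Spearman's rho over the 12 libraries was 0.147 with FBP1 and 0.364 with ADAMDEC1 for CD68, and -0.301 and 0.531 for MSR1. CD163, MRC1, MARCO, the C1Q genes, CD14 and CSF1R were not analysed here, so the name of macrophage-type genes rests on background and could be checked only in small part.

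Monocyte markers were highest in LM1265 for 2 of 6 named genes. VCAN, a proteoglycan of classical monocytes, was at 62.9 CPM in LM1265 and 3.26 to 47.1 CPM elsewhere. FCN1, a lectin secreted by monocytes, was at 342 CPM in LM1265 and 16.6 to 291 CPM elsewhere. Both were lowest in the fertile library LM1330, in which ADAMDEC1 was not detected. VCAN had a rho of 0.524 with ADAMDEC1 and 0.392 with FBP1, and FCN1 of 0.406 and 0.238. Of the others, CX3CR1, the fractalkine receptor, was at 226 CPM in LM1265, in place 2 of 12, and FCGR3A, an Fc receptor, at 53.3 CPM in place 4. ITGAM, an integrin of monocytes and granulocytes, was low there, at 68.5 CPM in place 11, with a rho of 0.070 with FBP1 and -0.161 with ADAMDEC1. The part of monocyte number in the levels of FBP1 and ADAMDEC1 was not tested.

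MS4A7, a membrane protein of monocytes and macrophages, ran the other way between the groups. It was at 26.8 to 108 CPM in fertile and 15.6 to 33.7 CPM in subfertile heifers, with a log2FC of -0.98 (SE 0.33). No subfertile heifer reached the fertile median, and without LM1330, which had the 108 CPM, the log2FC was -0.57. Among subfertile heifers MS4A7 was at 33.7 CPM in LM1265 and 33.5 CPM in LM1283, which had 11 FBP1 and 21 ADAMDEC1 reads. Over all 12 libraries its rho was -0.084 with FBP1 and -0.287 with ADAMDEC1.

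ADAMDEC1 and FBP1 differed in which blood cell genes they followed. CXCR2, a chemokine receptor of neutrophils, had a rho of 0.839 with ADAMDEC1 and -0.098 with FBP1. Its 3 highest libraries were LM1262 at 7.81, LM1265 at 7.61 and LM1286 at 4.05 CPM, and it was not counted in LM1330. Of the other neutrophil genes, STEAP4, a metalloreductase, had a rho of 0.727 with ADAMDEC1, TCN1, a vitamin B12 carrier of neutrophil granules, of 0.692, and NCF1, a subunit of the phagocyte oxidase, of 0.629. Their rho with FBP1 was -0.070, -0.182 and -0.182. IL1B, an inflammatory cytokine, had 0.664 with ADAMDEC1 and -0.112 with FBP1. The other 3 named genes of inflammatory macrophage activation had negative rho with ADAMDEC1, at -0.196 for the chemokine CXCL8, -0.294 for the chemokine CCL4 and -0.343 for the cytokine subunit IL23A. CXCR2, STEAP4, TCN1 and IL1B owe their names in the tables to being listed as a pair of ADAMDEC1, so their likeness was in part selected, which does not hold for NCF1 or for S100A9, a calprotectin subunit with a rho of 0.517. PADI4, an enzyme of neutrophil nuclei and the sixth named neutrophil gene, had a rho of 0.329 with ADAMDEC1 and 0.420 with FBP1.

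**Figure D4:**
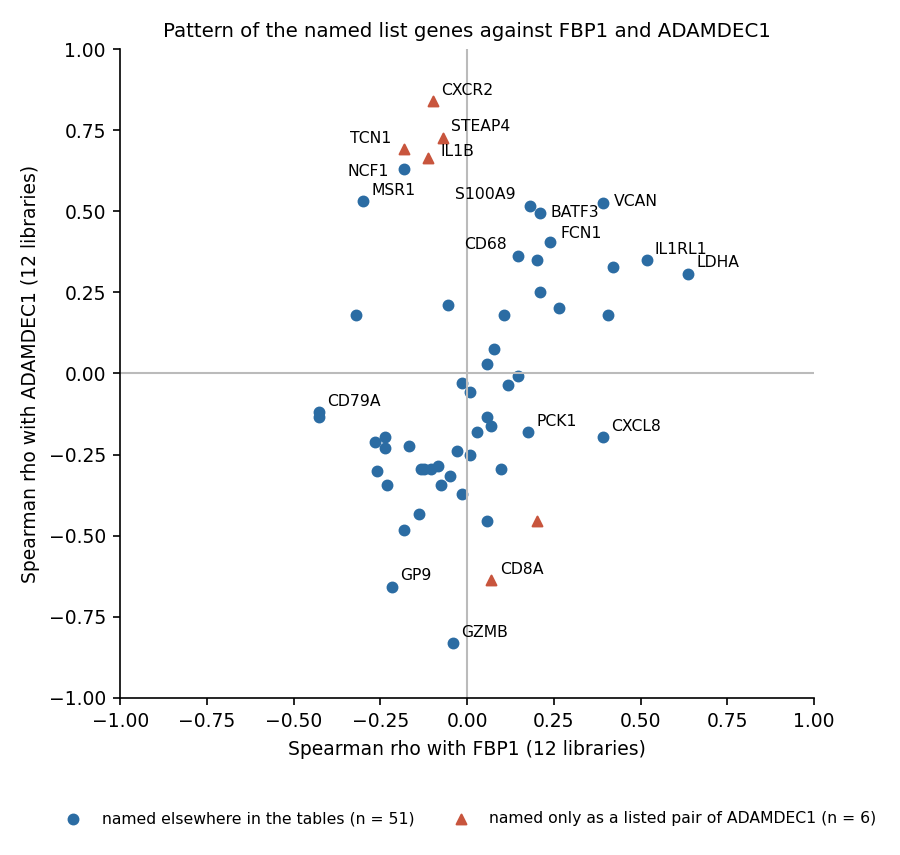
Spearman's rho with ADAMDEC1 (y axis) against that with FBP1 (x axis) over the 12 libraries for the 57 named list genes, with triangles for the 6 named only as a listed pair of ADAMDEC1. The neutrophil genes CXCR2, STEAP4, TCN1 and NCF1 lie at the top, slightly left of a rho of 0 with FBP1, LDHA lies farthest to the right at 0.636, and GZMB is lowest at -0.832 with ADAMDEC1.

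GZMB, the cytotoxic granule protease granzyme B, had the opposite pattern to ADAMDEC1, with a rho of -0.832 against -0.042 for FBP1. Its highest fertile libraries were LM1247 at 19.2, LM1298 at 16.4 and LM1330 at 8.40 CPM, the same 3 heifers that had 1, 6 and 0 ADAMDEC1 reads. The subfertile LM1313 departed from this pattern, with 8.44 CPM of GZMB and 23 ADAMDEC1 reads. LM1265, with 2.56 CPM, was the lowest of all 12. Between the groups GZMB was at 3.33 to 19.2 CPM in fertile and 2.56 to 8.44 CPM in subfertile heifers, a log2FC of -1.004 (SE 0.45), which was -0.66 without LM1247 and then not called. The call was also lost with library size alone and with the reproductive tract score in the model. The other 3 named NK cell genes did not share this extreme. PRF1, the pore-forming protein of cytotoxic granules, had a rho of -0.343 with ADAMDEC1 and was at 108 CPM in LM1265, in place 3 of 12. The transcription factors EOMES and TBX21 had rho of -0.035 and -0.455, and EOMES was also in place 3 in LM1265. CD8A, the coreceptor of cytotoxic T cells, had a rho of -0.636 with ADAMDEC1, and like TBX21 it owes its name to being a listed pair. All 5 named platelet genes had negative rho with ADAMDEC1, from -0.657 for GP9, a platelet adhesion receptor subunit, to -0.210 for the integrin ITGB3. The part of platelet RNA in the level of ADAMDEC1 was not tested. These correlations are descriptions over 12 libraries that share cell makeup and depth, and carry no test.

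**Figure D5:**
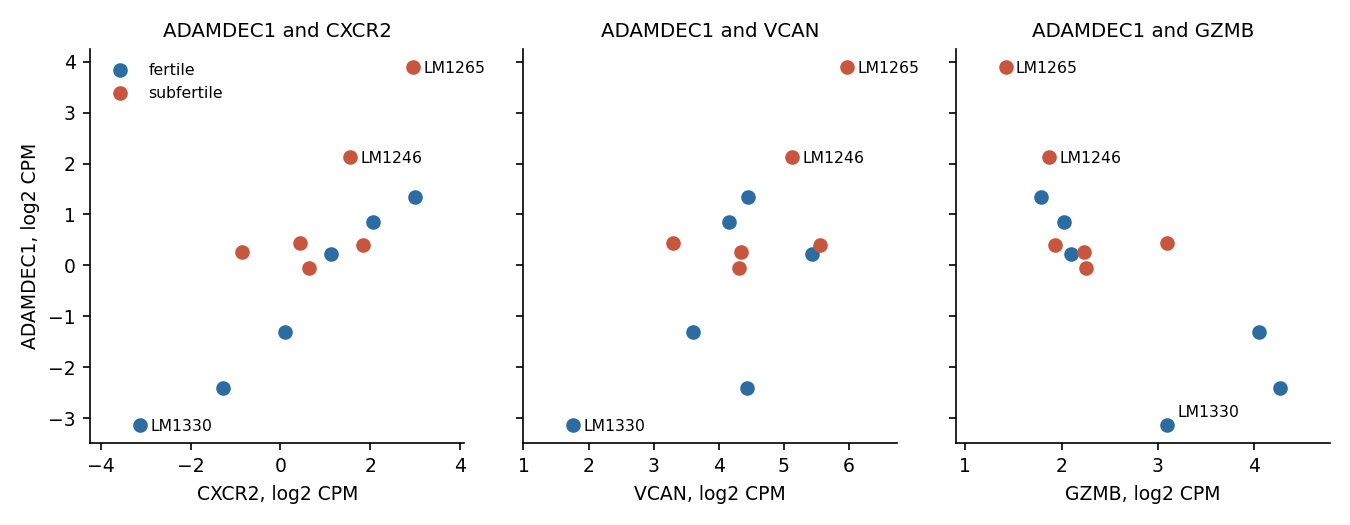
Log2 CPM (prior count 2) of ADAMDEC1 (y axes) against CXCR2, VCAN and GZMB (x axes), 1 point per heifer, fertile in blue and subfertile in red. ADAMDEC1 is high where CXCR2 is high (rho 0.839) and where GZMB is low (rho -0.832), and LM1265 is at the top of each panel.

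Of the other called list genes, IL1RL1 shared its highest libraries with FBP1. IL1RL1, the receptor of interleukin-33, was at 0.727 to 2.01 CPM in fertile and 1.68 to 5.92 CPM in subfertile heifers, a log2FC of 1.302 (SE 0.38). Its 2 highest libraries were LM1313 at 5.92 and LM1265 at 5.55 CPM, the same 2 as for FBP1, with a rho of 0.517. CYP27B1, the enzyme that makes active vitamin D, had a log2FC of 1.31 (SE 0.50), but LM1265 was in place 11 of 12 with 0.569 CPM. PAX5, a B cell transcription factor, had a log2FC of -0.51 (SE 0.24) and EPB42, a red cell membrane protein, of -0.96 (SE 0.38). The PAX5 call was lost with RLE size factors, with library size alone and with the reproductive tract score in the model. PAX5 had a rho of -0.168 with FBP1 and -0.224 with ADAMDEC1, and EPB42 of -0.182 and -0.483.

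In the pathway of FBP1, 2 of 12 other gluconeogenesis genes and 8 of 26 glycolysis genes were named, and none of the 10 was called. PCK1, which makes phosphoenolpyruvate in gluconeogenesis, was at 0.0547 to 1.37 CPM with LM1265 at 0.142 CPM. In LM1313, the library next to LM1265 for FBP1, PCK1 was at 1.13 CPM, and its rho with FBP1 over the 12 libraries was 0.175. G6PC3, a widely expressed glucose-6-phosphatase, was at 20.6 to 35.8 CPM and had a log2FC of -0.06 (SE 0.15). PFKP and PFKM, phosphofructokinases that run against FBP1, had log2FC of 0.00 (SE 0.11) and -0.05 (SE 0.21). TIGAR, which lowers the phosphofructokinase activator fructose 2,6-bisphosphate, had a log2FC of -0.15 (SE 0.21). LDHA, which turns pyruvate into lactate, was at 82.8 to 211 CPM with its maximum in LM1265. Its rho of 0.636 with FBP1 was the highest of the 57 list genes, and its log2FC was 0.26 (SE 0.19). The other 7 named glycolysis genes, HK1, PFKM, PFKP, TIGAR, ALDOC, PGK1 and PKM, had rho with FBP1 from -0.427 for PFKM to 0.203 for PGK1. FBP2, the other fructose-1,6-bisphosphatase, was not analysed here.

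In the family of ADAMDEC1, 3 of 14 other ADAM genes were named and none was called. ADAM10 and ADAM17, membrane proteases that shed surface proteins from most cells, were at 84.3 to 141 and 23.5 to 41.1 CPM. Their log2FC was -0.13 (SE 0.11) and -0.10 (SE 0.13), and their rho with ADAMDEC1 was -0.371 and -0.133. ADAM11 had a log2FC of 0.72 (SE 0.41) with LM1265 lowest of all libraries at 12.6 CPM. TIMP2, a metalloprotease inhibitor, had a log2FC of -0.91 (SE 0.53), with 225 CPM in LM1330, and was not called. ADAM7 and ADAM28, the closest relatives of ADAMDEC1, were not analysed here.

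Over all genes tested, the 8 with the highest rho with FBP1 ranged from 0.769 to 0.832 and the 8 with the highest rho with ADAMDEC1 from 0.783 to 0.895, and the lists shared 0 genes. FBP1 was most like VWCE, which encodes a protein with von Willebrand factor C and EGF domains and was at 1.94 to 6.13 CPM with its maximum in LM1313. The other 7, led by ENSBTAG00000015578 at a rho of 0.811, have no name in the tables. ADAMDEC1 was most like ATP2C2, a calcium and manganese pump of the secretory pathway, at a rho of 0.895 and 0.302 to 2.47 CPM with its maximum in LM1246. It was followed by ENSBTAG00000039337 at 0.881, CXCR2 at 0.839 and NR4A2, an orphan nuclear receptor induced early on cell activation, at 0.825. No gene followed both closely: for the best 8 the smaller of the rho values was 0.545 to 0.615. Of these SCML2, a Polycomb protein, had 0.601 with FBP1 and 0.657 with ADAMDEC1, and METTL15, a mitochondrial ribosomal RNA methyltransferase, had 0.601 and 0.552.

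These pooled rho values share the group contrast for which FBP1 and ADAMDEC1 were selected, and many were lower once each group was centred on its own mean. For FBP1, VWCE then had a rho of 0.699, and 0 of the 8 genes stayed among the 8 most like it. For ADAMDEC1, ATP2C2 fell to a rho of 0.580 and NR4A2 to 0.762, CXCR2 was at 0.909, and 2 of the 8 genes stayed. For both together 1 of 8 stayed. SCML2 then had a rho of 0.378 with FBP1 and 0.776 with ADAMDEC1.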

How the data were processed

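Per the labels, PWBCs were measured by RNA-seq in 6 fertile and 6 subfertile heifers. The authors isolated all RNA as 1 batch, made strand-specific poly(A) libraries, mapped reads with STAR to ARS-UCD1.3 and deposited raw counts per Ensembl gene, neither normalized nor filtered. The submitters' processing notes name FastQC 0.11.9, MultiQC 1.12 and STAR 2.7.5. The strand column taken from STAR is not given in the sources used here, so reads of an overlapping antisense gene may be included. Totals per library and Poisson intervals, which cover counting error only, are given with the values.

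Counts were kept with filterByExpr (minimum count 10, fertility groups given), scaled with TMM and fitted with the quasi-likelihood test of edgeR 4.0.16 (R 4.3.3), fertility being the only term, with Benjamini-Hochberg adjustment over all genes kept. Correlations were taken on log2 CPM (prior count 2), with P within a group from all permutations (Python 3.11.15, scipy 1.17.1). The adjustment also took in the P of the pooled values, from 100000 permutations, and of the subfertile values, which are not given. The code was tested on simulated data. Named were FBP1, ADAMDEC1, list genes that edgeR called, defining markers, close relatives, and the 8 genes most like each of the pair and both, besides list genes added after their values were seen. These genes and lists were chosen with earlier results of these data known. Symbols came from the supplementary tables. Planned correlations with summed marker lists were not run, since fewer than 80% of each list had a name. Alternatives were DESeq2 1.42.0, RLE size factors, library size alone, other filters, the reproductive tract score as a term, a prior count of 0.5, other measures of likeness, and each library left out. Reading the lists without genes named only through a pair with FBP1 or ADAMDEC1 was added after the data were seen. Per-heifer protein values were not analysed here, and 1 list gene is not reported here.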

Additional observations from a re-analysis of the deposited data

Results flagged for a closer look

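Among 64 groups of 6 libraries (32 genes, each in fertile and in subfertile heifers), 8 held an extreme library whose gap to the nearest other one, as a share of the range of the group, was above Dixon's 95% limit. Chance flags about 1 in 20 groups of normally distributed values, a condition that was not checked for these CPM. That rate does not apply to FBP1 and ADAMDEC1, which were selected for a high subfertile mean that LM1265 largely carries. Nor does it apply to genes selected for likeness to them, or to list genes selected for being called, such as MS4A7 and GZMB. The flags are therefore given as values only. FBP1 in subfertile heifers was at 8.18 CPM in LM1265 against 2.15 CPM in the next, LM1313. ADAMDEC1 in subfertile heifers was at 14.7 CPM in LM1265 against 4.29 CPM in LM1246. ENSBTAG00000022893, which was among the genes most like ADAMDEC1, was at 5.69 CPM in LM1265 against 1.74 CPM in the next subfertile heifer. In fertile heifers it was at 2.27 CPM in LM1286 against 0.727 CPM. MS4A7 was at 108 CPM in the fertile LM1330 against 43.3 CPM, and GZMB at 8.44 CPM in the subfertile LM1313 against 4.64 CPM. In the fertile LM1244, ENSBTAG00000013132 was at 5.91 CPM against 3.41 CPM and SCML2 at 0.845 CPM against 0.242 CPM.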

How the results depend on the processing

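FBP1 and ADAMDEC1 kept their direction in every alternative that gave a value. The log2FC was 2.39 and 2.07 with DESeq2, 2.39 and 2.04 with RLE size factors, 2.34 and 2.01 with library size alone, 2.40 and 2.05 with any gene of at least 1 count, and 2.43 and 2.17 with the reproductive tract score in the model. A minimum of 10 counts in every library removed both genes and gave no value. With each library left out, FBP1 ranged from 1.17 to 2.78 and ADAMDEC1 from 0.91 to 2.59, both lowest without LM1265. Testing any gene of at least 1 count, a wider set of genes, gave 624 calls in place of 182, of which 307 were higher and 317 lower. The share of that wider set is not given, so the 2 numbers of calls cannot be compared as shares. With a library left out, the calls ranged from 118 (without LM1330) to 365 (without LM1244), those higher from 56 (without LM1298) to 135 (without LM1244) and those lower from 60 (without LM1330) to 230 (without LM1244), with 163 lower without LM1265. Named list genes called ranged from 3 (without LM1298 or LM1330) to 12 (without LM1244), and stayed at 6 without the genes named only as a pair of ADAMDEC1. MS4A7, IL1RL1 and CYP27B1 passed both thresholds in all 12 such fits, EPB42 in 9, PAX5 in 4 and GZMB in 4. The PAX5 call was also lost with RLE size factors (unadjusted edgeR P from the model across all genes, 0.0507), and those of PAX5 and GZMB with library size alone and with the tract score. Between FBP1 and ADAMDEC1, r ranged from -0.0578 to 0.511 and rho from -0.0364 to 0.355, and both reversed, to -0.0578 and -0.0364, without LM1265. Of the 8 genes most like FBP1, 2 were kept with Pearson's r and 0 with values centred by group. For ADAMDEC1 3 and 2 were kept, and for both genes together 0 and 1. The cause of these changes was not tested. The planned correlations with summed markers, and their alternatives, were not run because too few list genes have a name. No paired analysis was possible because the labels give no replicate numbers that pair a fertile with a subfertile heifer. For depth, 5 libraries had fewer than 10 FBP1 reads.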

Other observations

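Of the genes tested, FBP1 was in place 3 and ADAMDEC1 in place 6 by the gap between LM1265 and the next highest library, at 1.87 and 1.75 log2 units. The pair was selected for a high subfertile mean that LM1265 largely carries, so these places follow in part from the selection. Among the top 50 genes by this gap, 12 have a name. From the largest gap down these were FBP1, ADAMDEC1, EBF4, GPR141, OSCAR, CACHD1, ANK1, TARM1, MGAM, RNF227, PDK4 and CHRNA2. They were singled out after their values were seen, and are given as values only. OSCAR, an activating receptor of myeloid cells and osteoclasts, was at 16.9 CPM in LM1265 against 8.57 CPM in LM1246, and TARM1, an activating receptor of myeloid cells, at 7.11 CPM against 4.18 CPM in LM1262. EBF4, of the early B cell factor family, was at 25.4 CPM against 9.71 CPM in LM1251, with a rho of 0.545 with FBP1 and -0.280 with ADAMDEC1. PDK4, a kinase that shuts down pyruvate dehydrogenase, was at 32.9 CPM against 20.1 CPM in LM1247, with a rho of 0.503 with FBP1 and 0.210 with ADAMDEC1. OSCAR had a rho of 0.294 with FBP1 and 0.531 with ADAMDEC1.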
